A study of Homo sapiens with 6 samples.

Results

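Mirtrons are short introns that fold into a microRNA hairpin once they have been spliced out and debranched, so that splicing, and not the nuclease Drosha, sets the outer ends of the precursor. Dicer then releases the 5p and 3p arms as for other miRNAs. Because an intron starts with GU and ends with AG, the 5p arm of a mirtron begins at the splice donor and the 3p arm ends at the splice acceptor. TUT4 and TUT7 are terminal uridylyltransferases that add uridines to the 3′ ends of RNAs, pre-miRNAs among them, and mirtron hairpins are known as RNAs that often carry such tails. The data below describe some of the first mirtrons to be found in mammals, miR-877 and hairpins of the series miR-1224 to miR-1236, in cells without both enzymes.

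The 10 mature arms were chosen by name from the 1000 mature miRNAs of the count table, and they come from 7 hairpins. Both arms were chosen for miR-877, miR-1226 and miR-1229, the 5p arm for miR-1224, miR-1228 and miR-1236, and the 3p arm for miR-1227. Small RNA was sequenced from 3 libraries of HEK 293T cells, an immortalized human embryonic kidney line, with a double knockout of TENT3A/B, the other names of TUT4 and TUT7 (ΔTUT4/7), and from 3 libraries of wild type HEK 293T cells (WT). No library was treated, and the replicates of each strain are labelled as biological replicates. The ΔTUT4/7 cells are 1 strain received from another laboratory, so every other difference between the strains is part of each comparison.

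The library totals were 4688610 to 5073921 counts in ΔTUT4/7 and 4338558 to 7967606 counts in WT cells, and 1 count was 0.126 to 0.230 CPM. CPM is the count scaled to the total of its library. In ΔTUT4/7 libraries 19.2% to 19.7% of that total was let-7 or miR-98, in WT libraries 5.57% to 6.36%, so that a smaller part of the ΔTUT4/7 totals was left to all other miRNAs. WT replicate 3 stood apart. The chi-square statistic over its degrees of freedom was 283.7 and 293.2 between its counts and those of the other WT libraries, 99.2 between the other two and 13.3 to 54.9 between ΔTUT4/7 libraries, so all replicates differed beyond sampling noise. Reads had been trimmed to 18 nt, shorter than all 10 arms (19 to 26 nt), so uridines at their 3′ ends were not measured. Neither enzyme is read by miRNA counts, so they offer no check of the strain labels. In bulk RNA a change in all cells and a larger change in some cells cannot be told apart.

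The mature sequences, from RefSeq on GRCh38.p14, are shown because they carry the mark of a mirtron at their ends and the seed by which each arm would find its targets. They are written 5′ to 3′ with the seed, bases 2 to 8, in capitals.
hsa-miR-877-5p: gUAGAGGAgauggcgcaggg
hsa-miR-877-3p: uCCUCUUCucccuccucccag
hsa-miR-1224-5p: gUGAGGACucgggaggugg
hsa-miR-1226-5p: gUGAGGGCaugcaggccuggaugggg
hsa-miR-1226-3p: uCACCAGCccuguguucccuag
hsa-miR-1227-3p: cGUGCCACccuuuuccccag
hsa-miR-1228-5p: gUGGGCGGgggcaggugugug
hsa-miR-1229-5p: gUGGGUAGgguuugggggagagcg
hsa-miR-1229-3p: cUCUCACCacugcccucccacag
hsa-miR-1236-5p: uGAGUGACaggggaaaugggga
No seed was shared among the 10 arms or with any other miRNA of the table, and none of their first 18 nt was shared with another row, so the trimmed reads could be told apart. Of the 6 chosen 5p arms, 5 began with GU, against 5.88% of the 391 5p arms of the table. All 4 chosen 3p arms ended with AG, against 20.2% of 420. The exception was miR-1236-5p, which starts 1 base inside its intron. The arms were chosen as named mirtrons, so such ends follow from the choice and are no result of these data. The shares over the table include the chosen arms. The arms were rich in G and C, with a median GC content of 65.1% (54.5% to 76.2%) against 50.0% over all 1000 miRNAs.

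Each of the 7 hairpins was identical, base for base, to an intron of the MANE Select transcript of a protein-coding gene in GENCODE release 44 on hg38. This is a match of annotation. Whether each hairpin is made by splicing, without Drosha, in these cells was not measured. The hairpins of miR-1226, miR-1229 and miR-877, the 3 with both arms chosen, are shown as RNA with the splice donor GU and the splice acceptor AG in capitals.
miR-1226 hairpin: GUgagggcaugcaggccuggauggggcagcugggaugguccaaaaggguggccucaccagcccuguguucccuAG
miR-1229 hairpin: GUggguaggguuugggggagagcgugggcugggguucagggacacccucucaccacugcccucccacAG
miR-877 hairpin: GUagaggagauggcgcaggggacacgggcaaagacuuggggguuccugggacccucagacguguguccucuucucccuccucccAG
Such ends were found in 36 (2.31%) of the 1560 human hairpins of RefSeq. The miR-1226 hairpin is intron 20 of DHX30, a gene for an RNA helicase, on the plus strand at chr3:47849555-47849629. The miR-1229 hairpin is intron 13 of MGAT4B, which encodes a glycosyltransferase that branches N-glycans, on the minus strand at chr5:179798278-179798346. The miR-877 hairpin is intron 13 of ABCF1, which encodes an ATP-binding protein that acts in translation, on the plus strand at chr6:30584332-30584417. The miR-1236 hairpin, intron 3 of NELFE (a subunit of the negative elongation factor of RNA polymerase II), lies on the same chromosome on the minus strand, at chr6:31956839-31956940. miR-1224 is intron 19 of VWA5B2 (plus strand, chr3:184241405-184241489), miR-1227 intron 4 of PLEKHJ1 (minus strand, chr19:2234062-2234149) and miR-1228 intron 49 of LRP1, an endocytic receptor gene (plus strand, chr12:57194504-57194576). The hairpins were 69 to 102 nt long.

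The mirtron arms differed in level by more than 2 orders of magnitude, and a pair of them held nearly all counts. miR-1226-3p and miR-877-5p together made up 95.6% to 96.7% of the counts of the 10 arms in each library. By mean CPM over the 6 libraries miR-1226-3p ranked 134 and miR-877-5p 188 among the 1000 miRNAs, while the others ranked from 472 (miR-1229-3p) to 866 (miR-1229-5p). In both strains miR-1226-3p was first and miR-877-5p second, with no overlap between their libraries within a strain and none with the next arm. In ΔTUT4/7 cells miR-1229-3p came next and also stood apart from the next arm. The others fell into 2 sets in ΔTUT4/7 cells, miR-1224-5p with miR-1226-5p and then miR-1236-5p, miR-1228-5p, miR-877-3p, miR-1227-3p and miR-1229-5p, whose neighbours overlapped within each set. In WT cells miR-1227-3p and miR-1224-5p came next, with overlapping libraries, and the 6 arms below miR-1224-5p overlapped with their neighbours.

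**Figure D1:**
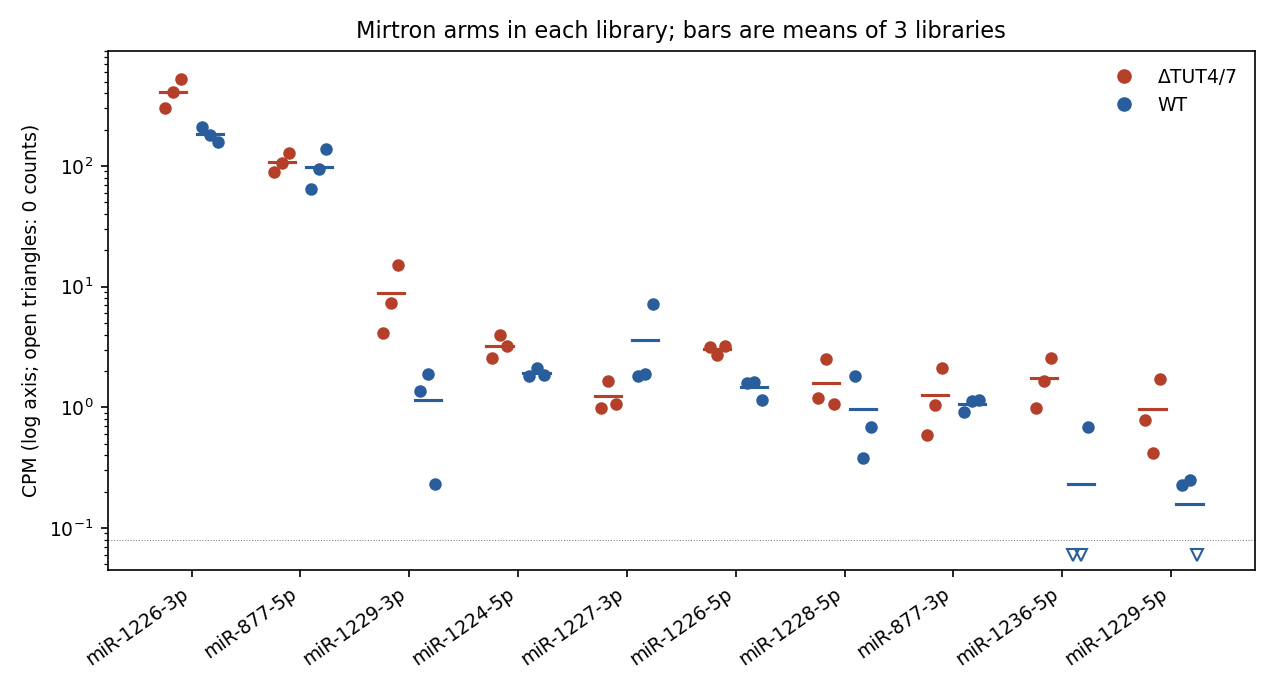
CPM of each mirtron arm (log axis) in the 3 ΔTUT4/7 and the 3 WT libraries, with points for libraries, in the order of replicates 1 to 3, and bars for the mean of a strain; open triangles mark libraries with 0 counts. miR-1226-3p lies at 302 to 527 CPM in ΔTUT4/7 and 159 to 211 CPM in WT libraries, and 8 of the 10 arms lie below 16 CPM in every library.

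The first comparison asked which of these arms changed in abundance without TUT4 and TUT7. All 10 had a highest count above 7 and entered the quasi-likelihood test of edgeR with all 826 such miRNAs, on estimated counts scaled to library totals. miR-1236-5p and miR-1229-5p exceeded 7 counts only in ΔTUT4/7 libraries, so the filter admitted them through the strain where they were high. An arm was called increased or decreased at a change of at least 2-fold with a Benjamini-Hochberg adjusted p under 0.05. By this rule 4 of the 10 arms were increased in ΔTUT4/7 cells, miR-1226-3p, miR-1226-5p, miR-1229-3p and miR-1236-5p, where 16.5% of all tested miRNAs were increased. None of the 10 was decreased, where 13.6% of all tested miRNAs were. The log2 fold change was positive for 9 of the 10, with a median of 0.92 against 0.01 over all tested miRNAs. At an unadjusted edgeR p under 0.05, 5 of the 10 were higher and 1, miR-1227-3p, was lower in ΔTUT4/7 cells, against 28.0% and 25.8% of all tested miRNAs. DESeq2 called 3 arms increased and 1 (miR-1227-3p) decreased, where it called 14.2% and 13.4% of all tested miRNAs. limma-trend called 3 arms increased and 0 decreased, where it called 14.2% and 10.7% of all. With let-7 and miR-98 left out of the totals, 5 arms were increased and 0 decreased, and over all tested miRNAs 183 were increased and 81 decreased in place of 136 and 112. The count of increased arms fell to 1 without ΔTUT4/7 replicate 3, where 111 of 807 tested miRNAs were increased. It fell to 2 without WT replicate 1 (136 of 821) or WT replicate 2 (113 of 778). It was also 2 when the trend of each library with GC content was removed (119 of 826). It was 3 without ΔTUT4/7 replicate 1 (132 of 820) or WT replicate 3 (132 of 822), and with RLE factors (131 of 826). With filterByExpr 3 of only 5 tested arms were increased, where 108 of 619 miRNAs were, and miR-1236-5p was not tested.

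In 7 of the 10 arms the libraries of the strains did not overlap, with 6 higher in all ΔTUT4/7 libraries and 1 higher in all WT libraries. Over all tested miRNAs 58.4% were separated in either direction, 28.8% with ΔTUT4/7 above and 29.5% with WT above. miR-877-5p, miR-877-3p and miR-1228-5p overlapped. The summed level of the 10 arms was 404, 534 and 686 CPM in ΔTUT4/7 replicates 1, 2 and 3 and 284, 282 and 309 CPM in WT replicates 1, 2 and 3. All ΔTUT4/7 sums lay above all WT sums. miR-1226-3p alone made up 51.4% to 76.8% of these sums, so they mostly repeat that arm and do not show a rise of all 10.

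miR-1226 was the one mirtron with both arms called increased, the 5p arm narrowly (edgeR adjusted p = 0.0412). Both arms of miR-1229 were also higher in all ΔTUT4/7 libraries, but miR-1229-5p narrowly missed the call (edgeR adjusted p = 0.0603). The calls therefore do not set miR-1226 apart from miR-1229. The 3p arm of miR-1226, hsa-miR-1226-3p, had 302, 408 and 527 CPM in ΔTUT4/7 replicates 1, 2 and 3, from 1530, 1961 and 2470 counts. In WT replicates 1, 2 and 3 it had 211, 179 and 159 CPM, from 930, 1429 and 689 counts. All ΔTUT4/7 libraries were above all WT libraries, and the mean was 412 ± 113 CPM against 183 ± 26.2 CPM (SD, n = 3 each). In the edgeR fit miR-1226-3p was increased 2.25-fold, a log2 difference of 1.17 ± 0.21 (SE) with an adjusted p of 8.46e-04. Without ΔTUT4/7 replicate 3 it was 0.95 (edgeR adjusted p = 0.00403) and with the GC trend removed 0.92 (edgeR adjusted p = 0.00111), both just under the 2-fold limit. Over all alternatives its adjusted p lay between 1.04e-06 and 0.0062.

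The 5p arm of miR-1226 was far less abundant. hsa-miR-1226-5p had 16, 13 and 15 counts in the ΔTUT4/7 libraries (3.15, 2.70 and 3.20 CPM) and 7, 13 and 5 counts in the WT libraries (1.59, 1.63 and 1.15 CPM). The strains did not overlap, and their means were 3.02 ± 0.274 CPM and 1.46 ± 0.265 CPM (SD, n = 3 each). The log2 difference was 1.02 ± 0.37 (SE), with an edgeR adjusted p of 0.0412, and this call was at the limit. It was lost in all 6 fits that left out a library, where the value ranged from 0.89 to 1.12 with edgeR adjusted p of 0.0716 to 0.0911, and with RLE factors (0.96), DESeq2 (0.98, adjusted p = 0.158), limma-trend (0.71) and the GC trend removed (0.69). Over all alternatives the adjusted p lay between 0.0169 and 0.158.

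miR-1229-3p was the one arm whose call held in all 16 alternatives to the fit. hsa-miR-1229-3p had 21, 35 and 71 counts in ΔTUT4/7 replicates 1, 2 and 3 (4.14, 7.28 and 15.1 CPM) and 6, 15 and 1 counts in WT replicates 1, 2 and 3 (1.36, 1.88 and 0.230 CPM). The strains did not overlap, but libraries of each strain differed several-fold, and the SD was 64.0% of the mean in ΔTUT4/7 and 72.9% in WT cells. It was increased 6.83-fold, a log2 difference of 2.77 ± 0.57 (SE) with an edgeR adjusted p of 0.00189. This difference ranged from 2.12 with limma-trend on log2(CPM + 1) to 3.42 without WT replicate 2.

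The 5p arm, hsa-miR-1229-5p, was near the detection limit, with 4, 2 and 8 counts in the ΔTUT4/7 and 1, 2 and 0 counts in the WT libraries. Only ΔTUT4/7 replicate 3 took it above the limit of 7 counts. Pooled over libraries, the ratio of the CPM values was 5.35 (exact 95% counting interval 1.49 to 29.1). This interval covers counting error only and leaves out the spread between libraries. The fit gave miR-1229-5p a log2 difference of 2.30 ± 0.92 (SE) and an edgeR adjusted p of 0.0603, which missed the limit. With limma-trend on log2(CPM + 1) the difference was 0.72. Over the alternatives the adjusted p lay between 0.0399 and 0.139, and the lowest came with let-7 and miR-98 left out of the totals.

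hsa-miR-1236-5p had 5, 8 and 12 counts in ΔTUT4/7 replicates 1, 2 and 3 and 0, 0 and 3 counts in WT replicates 1, 2 and 3. In CPM this was 0.985, 1.66 and 2.56 against 0, 0 and 0.691. Pooled over libraries, the ratio of the CPM values was 9.56 (exact 95% counting interval 2.92 to 49.5), where the interval leaves out the spread between libraries. In the fit miR-1236-5p was increased by a log2 difference of 3.07 ± 0.95 (SE) with an edgeR adjusted p of 0.0194, a value that rests on 3 WT counts, all of WT replicate 3. The arm passed the count limit only through ΔTUT4/7 libraries, so its entry into the test depended on its level there. The log2 difference was 2.24 without WT replicate 2 and 1.16 with limma-trend on log2(CPM + 1), a scale that understates changes of low counts. Without WT replicate 3 no WT count was left, so the fitted 6.24 is no bound. Against a floor of 3 counts over the WT libraries in use, the pooled ΔTUT4/7 level was 7.08-fold higher. That ratio leaves out the counting error of ΔTUT4/7 and the spread between libraries, so it is no lower limit. The call was lost without ΔTUT4/7 replicate 3, without WT replicate 1 and without WT replicate 2 (edgeR adjusted p of 0.0702, 0.0543 and 0.0947), and the adjusted p lay between 0.00625 and 0.0947 over all alternatives.

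hsa-miR-1227-3p was the one arm with a negative value. It had 5, 8 and 5 counts in the ΔTUT4/7 libraries (0.985, 1.66 and 1.07 CPM) and 8, 15 and 31 counts in the WT libraries (1.81, 1.88 and 7.15 CPM). WT replicate 3 stood far above the other WT libraries, although all 3 lay above all ΔTUT4/7 libraries. The log2 difference of miR-1227-3p, ΔTUT4/7 minus WT, was -1.46 ± 0.60 (SE) and missed the limit with an edgeR adjusted p of 0.0645. It passed at -1.75 without WT replicate 1 and at -1.83 without WT replicate 2 (edgeR adjusted p of 0.0379 and 0.0380). Without WT replicate 3 it was -0.58 (edgeR adjusted p = 0.344), and the adjusted p ranged from 0.0365 to 0.344 over the alternatives.

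Both arms of miR-877 had values close to no change. hsa-miR-877-5p had 88.5, 105.4 and 129.0 CPM in ΔTUT4/7 replicates 1, 2 and 3 and 64.1, 93.4 and 137.1 CPM in WT replicates 1, 2 and 3. The lowest and the highest value were both WT libraries. Its log2 difference was 0.13 ± 0.26 (SE), with an edgeR adjusted p of 0.703, and ran from -0.10 without WT replicate 1 to 0.44 without WT replicate 3. hsa-miR-877-3p had 3, 5 and 10 counts in the ΔTUT4/7 and 4, 9 and 5 counts in the WT libraries, and a log2 difference of 0.21 ± 0.58 (SE) with an edgeR adjusted p of 0.789. Without ΔTUT4/7 replicate 3 this was -0.39. The sign of both turned negative when the GC trend was removed (-0.14 and -0.03).

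hsa-miR-1224-5p had 13, 19 and 15 counts in the ΔTUT4/7 libraries (2.56, 3.95 and 3.20 CPM) and 8, 17 and 8 counts in the WT libraries (1.81, 2.13 and 1.84 CPM). All ΔTUT4/7 libraries lay above all WT libraries. A log2 difference of 0.72 ± 0.35 (SE), with an edgeR adjusted p of 0.112, left it under the 2-fold limit. hsa-miR-1228-5p had 6, 12 and 5 counts in the ΔTUT4/7 and 8, 3 and 3 counts in the WT libraries. These overlapped, and the log2 difference of 0.83 ± 0.66 (SE) had an edgeR adjusted p of 0.319. Without WT replicate 1 it was 1.62 (edgeR adjusted p = 0.0989), the lowest adjusted p of the alternatives, and the highest was 0.752.

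**Figure D2:**
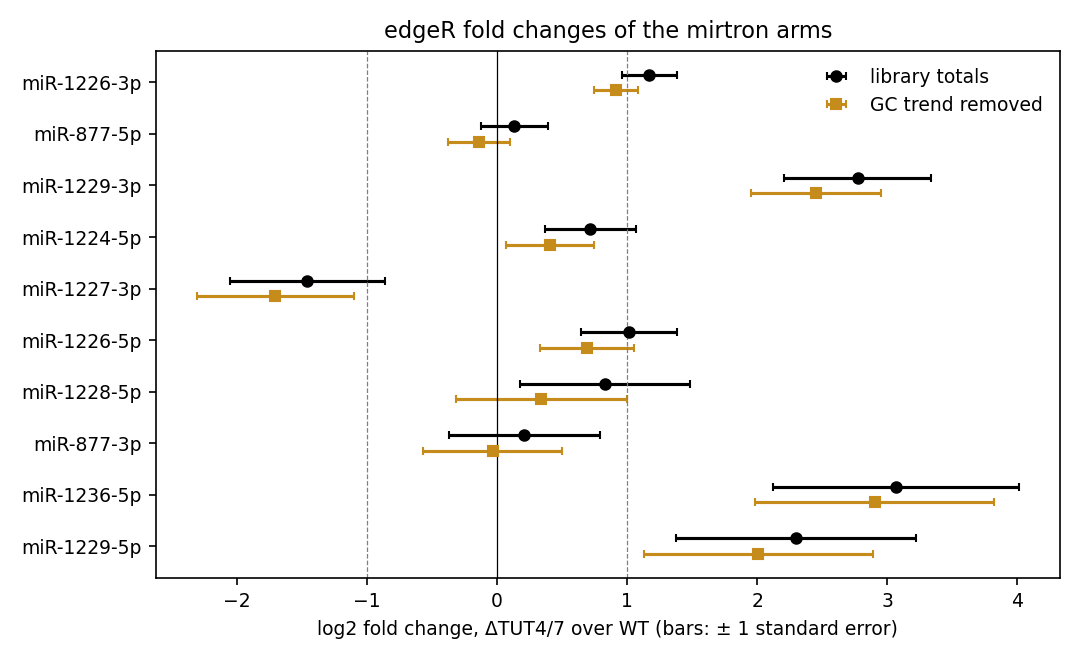
The log2 fold change of ΔTUT4/7 over WT for each mirtron arm (x axis) with bars of 1 standard error, from edgeR with library totals (black circles) and with the GC trend of each library removed (squares); dashed lines mark a 2-fold change. Every arm moved toward lower values with the GC trend removed, miR-1226-3p from 1.17 to 0.92 and miR-1229-3p from 2.77 to 2.45.

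GC content moved with these values. Among the 322 tested miRNAs with a GC content inside the range of the mirtron arms, the median log2 fold change was 0.30, 20.5% were increased and 8.70% decreased. Among the 482 with a lower GC content the median was -0.15, with 63 increased and 82 decreased. With the GC trend of each library removed, the median over the mirtron arms was 0.55 in place of 0.92, miR-1229-3p and miR-1236-5p were increased, and miR-1227-3p was decreased (-1.71, edgeR adjusted p = 0.0365). In that fit 14.4% of all tested miRNAs were increased and 14.6% decreased. Among the ΔTUT4/7 libraries, replicate 3 had the highest CPM for 7 of the 10 arms. The median log2 ratio of ΔTUT4/7 replicate 3 to replicate 1, on CPM with 1 added, was 0.57 over the mirtron arms, 0.26 over the miRNAs of their GC range and 0.07 over all tested miRNAs. The part of GC content in the differences between the strains was not tested.

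**Figure D3:**
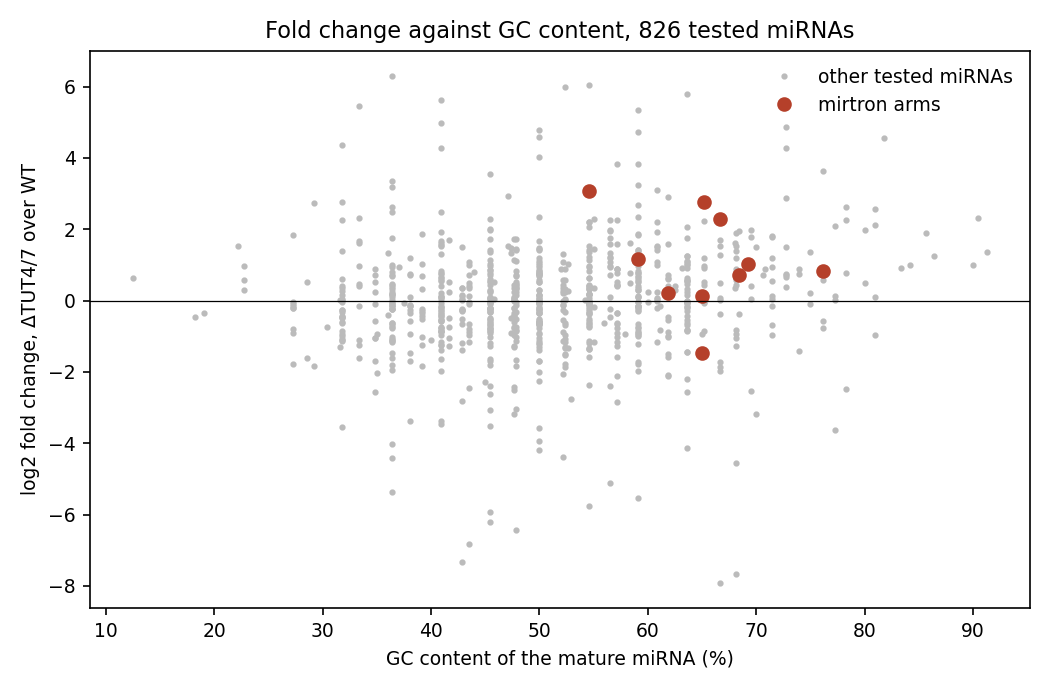
The log2 fold change of ΔTUT4/7 over WT (y axis) against the GC content of the mature sequence (x axis, percent) for all tested miRNAs, with the 10 mirtron arms as large points. The mirtron arms lie between 54.5% and 76.2% GC, and of them miR-1227-3p alone is below 0.

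The second comparison asked whether the balance of the 5p and the 3p arm of a mirtron differed between the strains. Both arms are read in the same library, so their ratio does not depend on library scaling. The mirtrons differed widely in which arm was kept. miR-877 was nearly all 5p, with 98.9% of 1579 counts in ΔTUT4/7 (exact Clopper-Pearson 95% interval 98.2% to 99.3%) and 98.9% of 1640 counts in WT cells (98.3% to 99.3%). miR-1226 was nearly all 3p, with 99.3% of 6005 counts in ΔTUT4/7 (99.0% to 99.5%) and 99.2% of 3073 counts in WT cells (98.8% to 99.5%). These intervals cover counting error only.

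miR-1229 was mostly 3p, with a 5p share of 9.93% of 141 counts in ΔTUT4/7 (5.54% to 16.1%) and 3 of 25 counts in WT cells (2.55% to 31.2%). For 3 of the hairpins the second arm was in the table but not among the 10. With it, miR-1224 was mostly 5p, at 88.7% of 53 counts in ΔTUT4/7 and 89.2% of 37 counts in WT cells. miR-1228 was close to even, with a 5p share of 59.0% of 39 counts (42.1% to 74.4%) and 46.7% of 30 counts (28.3% to 65.7%). The other arm of miR-1227 was not among the miRNAs counted, so its balance could not be given.

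The interaction of arm and strain was tested by edgeR in the 200 hairpins with both arms above the count limit, where 15.5% (31) changed their balance at an adjusted p under 0.05. This count was 11 of 199 without ΔTUT4/7 replicate 3, 14 of 197 without ΔTUT4/7 replicate 2, 20 of 189 without WT replicate 2 and 48 of 200 without WT replicate 3. None of the 4 mirtron hairpins in the test of all libraries did so, nor did any at an unadjusted p under 0.05. The log2 change of the 5p to 3p ratio was -0.02 for miR-877 (edgeR adjusted p = 0.980), -0.13 for miR-1226 (edgeR adjusted p = 0.874), 0.68 for miR-1228 (edgeR adjusted p = 0.638) and -0.42 for miR-1229 (edgeR adjusted p = 0.892). The counts allow a range around these values: the odds ratio of 5p to 3p, ΔTUT4/7 over WT, had an exact 95% counting interval of 0.470 to 1.97 for miR-877, 0.538 to 1.54 for miR-1226, 0.566 to 4.78 for miR-1228 and 0.201 to 4.75 for miR-1229. These intervals come from counts pooled over the libraries of each strain. They leave out the differences between libraries, so they are no limits of what the test could detect. The exact 2-sided permutation test of the log2 ratios per library gave p of 0.8, 0.6, 0.5 and 0.2 for the same hairpins, where 3 libraries against 3 cannot go below 0.1.

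miR-1236 had too few 3p counts for this test. Its 5p share was 78.1% of 32 counts in ΔTUT4/7 (exact interval 60.0% to 90.7%) and 30.0% of 10 counts in WT cells (6.67% to 65.2%). The 3p arm had 7 counts in each strain, while the 5p arm had 25 and 3. The odds ratio of 5p to 3p was 7.82, with an exact counting interval of 1.36 to 59.7. This interval comes from pooled counts and leaves out the differences between libraries. WT replicate 3 held 8 of the 10 WT counts, among them all 3 of the 5p arm. The 5p arm was also one that exceeded 7 counts only in ΔTUT4/7 libraries. With no limit on low counts the log2 change in balance of miR-1236 was 2.97 (edgeR adjusted p = 0.165).

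**Figure D4:**
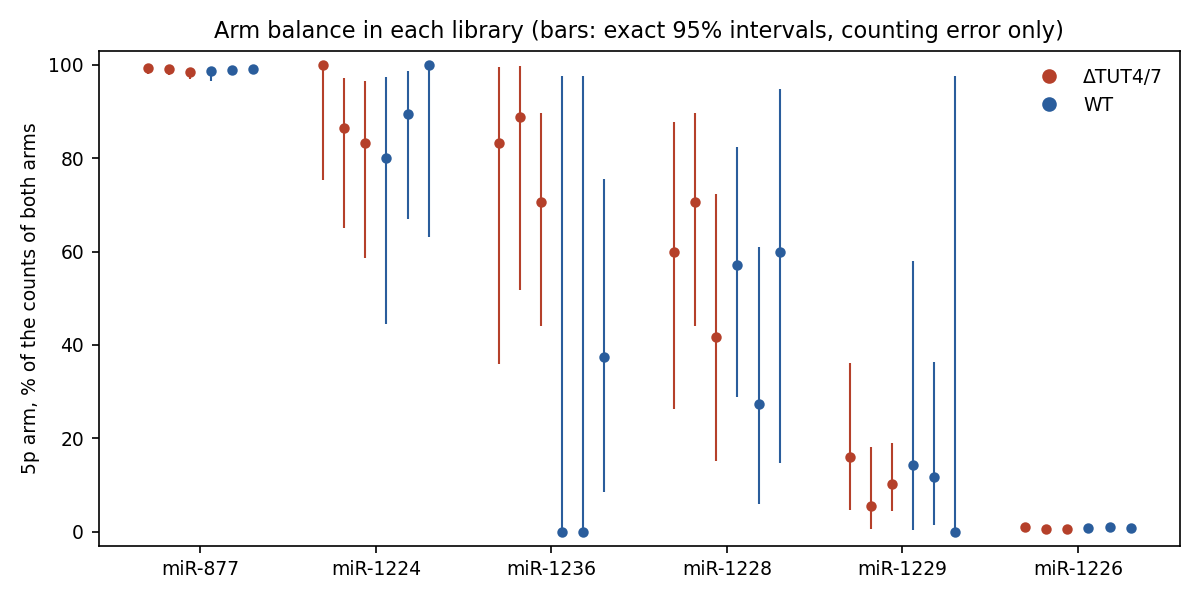
Share of the 5p arm in the counts of both arms (y axis, percent) for 6 mirtron hairpins in each library, ΔTUT4/7 replicates 1 to 3 and then WT replicates 1 to 3, with exact 95% intervals. miR-877 lies at 98.4% to 99.3% and miR-1226 at 0.604% to 1.03%, while the intervals of the sparse hairpins are wide.

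The leading arms of the 2 abundant mirtrons can be set against each other within a library. The ratio of miR-1226-3p to miR-877-5p counts was 3.41, 3.87 and 4.08 in ΔTUT4/7 replicates 1, 2 and 3 and 3.29, 1.92 and 1.16 in WT replicates 1, 2 and 3. All ΔTUT4/7 values lay above all WT values, the closest being ΔTUT4/7 replicate 1 and WT replicate 1. This ratio was chosen after the values were seen and was not tested.

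By the Euclidean distance of log2(CPM + 1) over the 6 libraries, the miRNAs most like miR-1226-3p were miR-190a-5p (distance 0.718), miR-339-3p (1.08) and miR-7-1-3p (1.25). On average miR-190a-5p was at 362 CPM in ΔTUT4/7 and at 185 CPM in WT cells, a log2 difference of 0.97 ± 0.17 (SE). The distance weighs level and strain difference together.

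Set beside 2 related groups, the mirtron arms were described by the same counts. The range miR-6716 to miR-6895 and miR-7106 to miR-7114, annotated later and known to hold many mirtrons, had 69 tested arms, of which 11 were increased and 11 decreased, with a median log2 fold change of -0.35. The most abundant of them, miR-6720-5p, reached 34.0 ± 5.54 CPM in ΔTUT4/7 and 20.4 ± 2.59 CPM in WT cells (SD, n = 3 each). The miR-320 family and miR-484, whose hairpins also bypass Drosha but are made by transcription and not by splicing, had 6 tested arms, of which 4 were increased and 0 decreased, with a median of 1.13. Of these, miR-320b, the most abundant, had a log2 difference of -0.07 ± 0.17 (SE), and miR-484 rose by 1.04 ± 0.26 (SE) with an edgeR adjusted p of 0.00581. miR-320b and miR-320c had nearly the same mean level, 889 and 882 CPM in ΔTUT4/7 and 935 and 906 CPM in WT cells. Reads of 18 nt may not tell arms of the miR-320 family apart, so these arms may not be separate measurements. Among the 679 tested miRNAs with a mean CPM inside the range of the 10 mirtron arms, 17.8% were increased and 14.0% decreased, with a median log2 fold change of 0.08. The differences between these groups were not tested.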

How the data were processed

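Small RNA libraries of 3 ΔTUT4/7 and 3 WT HEK 293T cultures were made by the authors with the QIAseq miRNA Library Kit. The authors' reads, cut to 18 nt, were mapped by Bowtie 1.0.0 (genome hg38) and quantified on mature miRNAs of miRBase version 22 in Partek Flow 10.0.22. The sources used here do not say whether molecular identifiers were collapsed. The deposited table holds estimated counts, which the authors obtained by expectation maximization, all whole numbers and not normalized. The authors' second table holds their own comparison (p-values, FDR, fold changes and strain means) and was not used.

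Libraries were assigned to strains from their titles. Counts were scaled to library totals, miRNAs with a highest count above 7 were kept, and strains were compared with edgeR 4.0.16 (quasi-likelihood test, R 4.3.3), with the standard error taken as the log2 fold change divided by the root of F. Arm balance was tested in edgeR as an arm by strain interaction with the library as a block. Intervals and exact tests used scipy 1.17.1. Both edgeR tests were checked on simulated counts with 4-fold changes and the same dispersion, 0.0358, for every miRNA. They recovered 95.7% of 188 changes between strains and 97.4% of 39 changes in arm balance, with 3 and 0 false calls. Changes near 2-fold and the larger spread of some sparse arms were not simulated. Sequences came from RefSeq tables (all 10 arms matched), introns from GENCODE release 44, and GC content from hg38. End positions in the table lie 1 base past the last base of the RefSeq arm. Alternatives were TMM and RLE factors, totals leaving out let-7 and miR-98, DESeq2 1.42.0, limma-trend (limma 3.58.1), no filter, filterByExpr, the replicate block, removal of the GC trend (lowess, span 0.5), sums of rows that share 18 nt, other call rules and each library left out.

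The arms, lists and tests were chosen with earlier results of these data known. All 10 arms are named. From each related group the arms with the highest mean CPM, at most 3, could be named, and for the most abundant arm its 3 nearest miRNAs.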

Additional observations from a re-analysis of the deposited data

How the results depend on the processing

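Over the alternatives, the direction of the fold change was the same for all arms but miR-877-5p and miR-877-3p, which turned to -0.14 and -0.033 (log2) with the GC trend removed and ranged from -0.10 to 0.44 and from -0.39 to 0.55 with each library left out. Against 4 increased arms, 2 were increased with the GC trend removed and 1 to 4 with a library left out, the lowest without ΔTUT4/7 replicate 3. Over all tested miRNAs 119 of 826 were increased with the GC trend removed, and 111 to 136 of 778 to 822 with a library left out. Against 0 decreased arms, 1, miR-1227-3p, was decreased with RLE factors, DESeq2, the GC trend removed, or by 2-fold alone, and 0 to 1 with a library left out. Of all 826 tested miRNAs 120 were decreased with RLE factors, 111 with DESeq2 and 121 with the GC trend removed. The count by 2-fold alone was not taken over all miRNAs, so that setting has no background. With a library left out 93 to 106 were decreased. Leaving let-7 and miR-98 out of the totals shifted the median of all miRNAs to 0.23. In arm balance none of the 4 hairpins passed in any setting run, and miR-1228 and miR-1229 could each not be tested with 1 library left out. The change for miR-877 (-0.02) was 0.12 or 0.11 as the mean log2 ratio per library with 0.5 or 1 added, and -0.25 to 0.41 with a library left out. For miR-1226 that range was -0.37 to 0.034, and for miR-1228 (0.68) it was 0.19 to 1.17. For miR-1229 (-0.42) it was -0.69 to -0.14, and the mean log2 ratio per library was -0.94 or -1.17. The causes were not tested.

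The labels do not say whether libraries of the same replicate number were paired. Deviations of same-numbered libraries correlated at -0.17 to -0.10. These values gave no sign of pairing, but with 3 libraries in each strain they cannot exclude it. With the replicate block, miR-1226-5p lost its call (1.02, edgeR adjusted p = 0.0977), and 2 of 200 hairpins, in place of 31, changed their balance. Under filterByExpr, 5 of the 10 arms were tested, and miR-1229-5p was not tested without ΔTUT4/7 replicate 3. At 1 CPM an arm rests on 4 to 8 counts, which limits 8 of the 10 arms.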

Other observations

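Other arms of classic mirtrons in the table were sparse. miR-1237-3p had 6, 10 and 25 counts in ΔTUT4/7 replicates 1, 2 and 3 and 23, 30 and 9 counts in WT replicates 1, 2 and 3. The libraries of the strains overlapped, and the log2 difference, ΔTUT4/7 minus WT, was -0.38 ± 0.50 (SE) with an edgeR adjusted p of 0.561. miR-1228-3p, the partner of miR-1228-5p, had 16 counts in each strain and a log2 difference of 0.21 ± 0.58 (SE) with an edgeR adjusted p of 0.795. miR-1224-3p and miR-1236-3p had highest counts of 3 and 5 and were not tested. In the range miR-6716 to miR-6895, miR-6765-3p averaged 18.7 ± 4.97 CPM in the ΔTUT4/7 libraries and 1.42 ± 0.314 CPM in the WT libraries (SD, n = 3 each). It was increased by a log2 difference of 3.64 ± 0.33 (SE), with an edgeR adjusted p of 3.21e-06.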
